A study of Mus musculus with 12 samples.

Results

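The genes of NADPH supply, glutathione chemistry and antioxidant defence were followed in mouse dorsal root ganglion neurons after spinal cord injury. The set held 34 genes, listed by symbol for their function, of 21753 genes listed in either of 2 deposited expression tables, and all 34 were present in both tables. Dorsal root ganglia hold the cell bodies of the sensory neurons that report to the spinal cord, and the L4-6 ganglia sampled here feed the sciatic nerve. The mice were C57BL/6J animals of 8 weeks, and in every group the neurons were taken 72 h after the injury, so none of the 4 groups was uninjured. AAV-TKT mice had received an adeno-associated virus carrying transketolase into the sciatic nerve for 4 weeks, and AAV-GFP mice the same with green fluorescent protein. Ribose mice were treated with 10% ribose, a pentose sugar, and Vehicle mice with the vehicle. Each group held 3 libraries of polyadenylated RNA, quantified as FPKM, which scales reads to transcript length and to library size. The promoter of the viruses, the route of the ribose and whether a library was 1 animal or a pool were not stated in the sources used here, so the p-values measure the spread between these libraries, which may be partly technical.

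NADPH is the reducing currency of antioxidant chemistry. The oxidative branch of the pentose phosphate pathway makes it, as do malic enzymes, isocitrate dehydrogenases and the mitochondrial transhydrogenase, while transketolase works in the non-oxidative branch of the same pathway. NADPH keeps glutathione and thioredoxin reduced: glutathione peroxidases and peroxiredoxins use them to clear peroxides, and glutathione transferases couple glutathione to reactive compounds. Many of these genes are targets of NRF2, a transcription factor encoded by Nfe2l2 that KEAP1 marks for degradation until oxidants or electrophiles release it to antioxidant response elements.

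A core of that element was looked for in the RefSeq promoter windows of GRCm38.p6, which run from 250 bases before to 50 after a start site. Of the 34 genes, 28 had a window; Gclc, Gsr, Gsta4, Prdx6, Hmox1 and Nnt had none. The letters TGACNNNGC or TGAGNNNGC, on either strand, were in a window of 12 of these 28 genes (42.9%), against 8314 of 27025 genes in the whole table (30.8%). TGACNNNGC alone was in 8 of the 28 (28.6%, against 14.0% of all genes), and TGAGNNNGC in 7 (25.0%, against 19.9%). The AP-1 core TGANTCA, which can overlap these letters, was in 5 of the 28 (17.9%, against 8.97%). Such a match is a description of the letters, not of a bound site. Of the 8 genes described below whose AAV-TKT libraries all lay above the AAV-GFP libraries, 6 held one and Hmox2 and Keap1 did not. Of the 4 whose libraries lay below, Nfe2l2 held one, Txn1 did not, and Prdx6 and Hmox1 had no window. Gstm5, Txnrd1, Prdx1, Me1 and Idh1, whose groups overlapped, also held one. A link of the match to the direction was not tested. The 4 windows shown, all with a match, are those of Gclm, Srxn1, Gstp1 and Txn2, and were chosen among the 6 to show the letters. They lie at chr3:122245307-122245606 on the plus strand for Gclm, chr2:152105274-152105573 on the plus strand for Srxn1, chr19:4037863-4038162 on the minus strand for Gstp1 and chr15:77928945-77929244 on the minus strand for Txn2. Capitals mark TGACNNNGC or TGAGNNNGC, or its reverse complement.
Gclm: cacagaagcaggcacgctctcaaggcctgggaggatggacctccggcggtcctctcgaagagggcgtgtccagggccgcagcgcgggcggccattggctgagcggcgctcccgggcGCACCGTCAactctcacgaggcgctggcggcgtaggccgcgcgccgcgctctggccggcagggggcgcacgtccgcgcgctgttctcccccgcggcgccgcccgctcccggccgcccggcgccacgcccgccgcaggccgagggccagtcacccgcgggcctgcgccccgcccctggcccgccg
Srxn1: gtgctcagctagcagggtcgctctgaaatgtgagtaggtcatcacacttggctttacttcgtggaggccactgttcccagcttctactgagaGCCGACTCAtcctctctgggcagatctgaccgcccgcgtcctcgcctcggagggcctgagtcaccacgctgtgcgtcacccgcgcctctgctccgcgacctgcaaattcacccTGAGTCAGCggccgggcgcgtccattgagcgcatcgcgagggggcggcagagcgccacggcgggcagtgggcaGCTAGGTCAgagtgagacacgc
Gstp1: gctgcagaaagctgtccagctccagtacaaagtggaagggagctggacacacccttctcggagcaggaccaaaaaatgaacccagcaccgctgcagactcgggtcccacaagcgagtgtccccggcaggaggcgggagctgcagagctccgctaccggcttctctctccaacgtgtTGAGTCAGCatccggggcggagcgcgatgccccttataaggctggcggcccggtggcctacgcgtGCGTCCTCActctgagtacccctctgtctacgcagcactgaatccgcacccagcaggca
Txn2: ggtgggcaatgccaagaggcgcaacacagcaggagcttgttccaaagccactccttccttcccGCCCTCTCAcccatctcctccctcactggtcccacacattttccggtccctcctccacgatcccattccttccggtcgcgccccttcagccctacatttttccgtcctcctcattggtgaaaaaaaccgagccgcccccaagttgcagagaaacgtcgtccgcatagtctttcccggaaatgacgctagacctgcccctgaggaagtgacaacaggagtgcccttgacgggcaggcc
Srxn1 held 3 matches, beginning at positions -158, -45 and 29 relative to the start site, and the one at -45 overlapped the AP-1 core. Gstp1 held 2, at -74, again over an AP-1 core, and at -9. Gclm held 1 at -134 and Txn2 1 at -187.

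The targeted gene followed the labels. Tkt had 223, 259 and 262 FPKM in the AAV-TKT libraries, against 106.5, 101.7 and 98.1 FPKM in the AAV-GFP libraries. It was 1.27 ± 0.08 higher (SE, on the log2(FPKM + 1) scale, adjusted p = 0.0054), and was 1 of 2 genes of 13178 that passed the adjusted threshold of 0.05 in limma, a linear model with moderated variance fitted across all genes. In the ribose experiment 1 of 13804 genes passed, and it was none of the genes described here. Library totals ran from 413635 to 456084 FPKM in the AAV experiment and from 510551 to 551370 in the ribose experiment. A single non-coding RNA, Rn7s2, held 6.32% (AAV-GFP replicate 2) to 12.6% (AAV-GFP replicate 1) of these totals in the AAV experiment. In the ribose experiment it held 18.7% (Vehicle replicate 3) to 26.7% (Vehicle replicate 1). Read depth is unknown, since the tables hold no counts. The sampled tissue carried its neuronal label, with 10 of 10 neuron markers listed in both tables, but markers of other cells were present too. In AAV-TKT against AAV-GFP libraries, the summed level of neuron markers was 6381 to 7257 against 5530 to 6252 FPKM. Without overlap, 4 of the 10 lay higher and 1, Syt1, lay lower. The summed level of 8 large-diameter neuron markers was 1184 to 1334 against 938 to 1066 FPKM, with 4 of the 8 higher without overlap. That of 9 listed Schwann cell markers was 492 to 520 against 568 to 613 FPKM. The 8 listed macrophage markers summed to 14.3 to 20.3 FPKM in AAV-TKT against 39.6 to 53.3 FPKM in AAV-GFP libraries, and the 10 listed neutrophil markers to 20.1 to 32.1 against 97.3 to 263 FPKM. The 7 listed red cell markers summed to 77.3 to 99.1 against 119 to 482 FPKM. None of the 7 endothelial markers was in the AAV table. Genes listed there averaged at least 1 FPKM, so markers low in both groups are missing from these sums. In the ribose experiment the summed levels of every marker list overlapped between groups except Schwann cell markers, at 503 to 607 FPKM in Ribose and 649 to 746 FPKM in Vehicle libraries.

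Within these libraries the antioxidant genes were well expressed. The median of their mean levels was 49.9 FPKM in the AAV table, where the median gene had 10.1 FPKM, and 54.2 FPKM in the ribose table, where it had 10.2 FPKM. Of the 34 genes, 8 exceeded 100 FPKM and 6 lay below 10 FPKM in each table. The cytosolic copper-zinc superoxide dismutase Sod1 was the most abundant in the AAV table, followed by the cytosolic thioredoxin Txn1, the peroxiredoxin Prdx2 and the lipid peroxide reductase Gpx4. In the ribose table Txn1 came before Sod1, and Gpx4 and Prdx2 were next at nearly equal means of 219 and 218 FPKM. Sod1 alone held 16.7% to 17.9% of the summed level of the 34 genes in AAV-TKT libraries and 15.7% to 16.7% in AAV-GFP libraries. Partner genes differed widely in level. The regulatory subunit of glutamate-cysteine ligase, Gclm, stood 7.81 ± 0.69 times above its catalytic subunit Gclc in AAV-TKT and 6.40 ± 0.86 times in AAV-GFP libraries (mean ± SD of the ratio, n = 3 each). Cytosolic enzymes exceeded their mitochondrial counterparts: Sod1 over Sod2 was 6.26 to 7.28 in AAV-TKT and 5.56 to 6.15 in AAV-GFP libraries, and Me1 over Me3 was 10.2 to 13.7 in AAV-TKT and 13.9 to 15.3 in AAV-GFP libraries. The constitutive heme oxygenase Hmox2 stood above the inducible Hmox1 in every library of both tables.

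The first comparison asked what transketolase delivery did to these genes. None of the 34 passed the adjusted threshold, at a background of 0.0152% of all genes (lowest adjusted p = 0.378 in limma). In 8 genes, all AAV-TKT libraries lay above all AAV-GFP libraries (23.5% of the 34, against 11.3% of all genes), and in 4 all lay below (11.8%, against 7.2%). The 8 were Gclm, Gstp1, Txn2, Srxn1, Sod1, Hmox2, Me3 and Keap1, and the 4 were Txn1, Prdx6, Hmox1 and Nfe2l2. At an unadjusted p under 0.05 there were 5 higher, Gclm, Txn2, Prdx5, Srxn1 and Hmox2 (14.7%, against 6.23%), and 1 lower, Hmox1 (2.94%, against 4.36%). The 5 became 1 when AAV-TKT replicate 2 was left out, 2 without AAV-GFP replicate 3 and 3 without AAV-GFP replicate 2. The balance of 5 higher to 1 lower was 4 to 4 with libraries set to equal totals or quantile normalized, and 5 to 3 with median-of-ratios scaling. The log2 difference was positive in 24 of the 34 genes as deposited, in 19 with equal totals (set without the non-coding RNA Rn7s2), in 22 with median-of-ratios scaling, in 20 with quantile normalization, and in 18 without AAV-TKT replicate 2. Its median was 0.07, against 0.01 over all genes. It was 0.02 with equal totals, against -0.03 over all genes, 0.03 without AAV-TKT replicate 2 and 0.03 without AAV-GFP replicate 3. The median of the 34 genes per library varied within groups by an SD of 0.065, about as much as that median. Fewer cells of a type and less RNA per cell cannot be told apart in such bulk samples. Neuron markers had higher summed levels in every AAV-TKT library, as given above, although Syt1 lay lower. The part of these markers in the genes that lay higher was not tested.

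**Figure D1:**
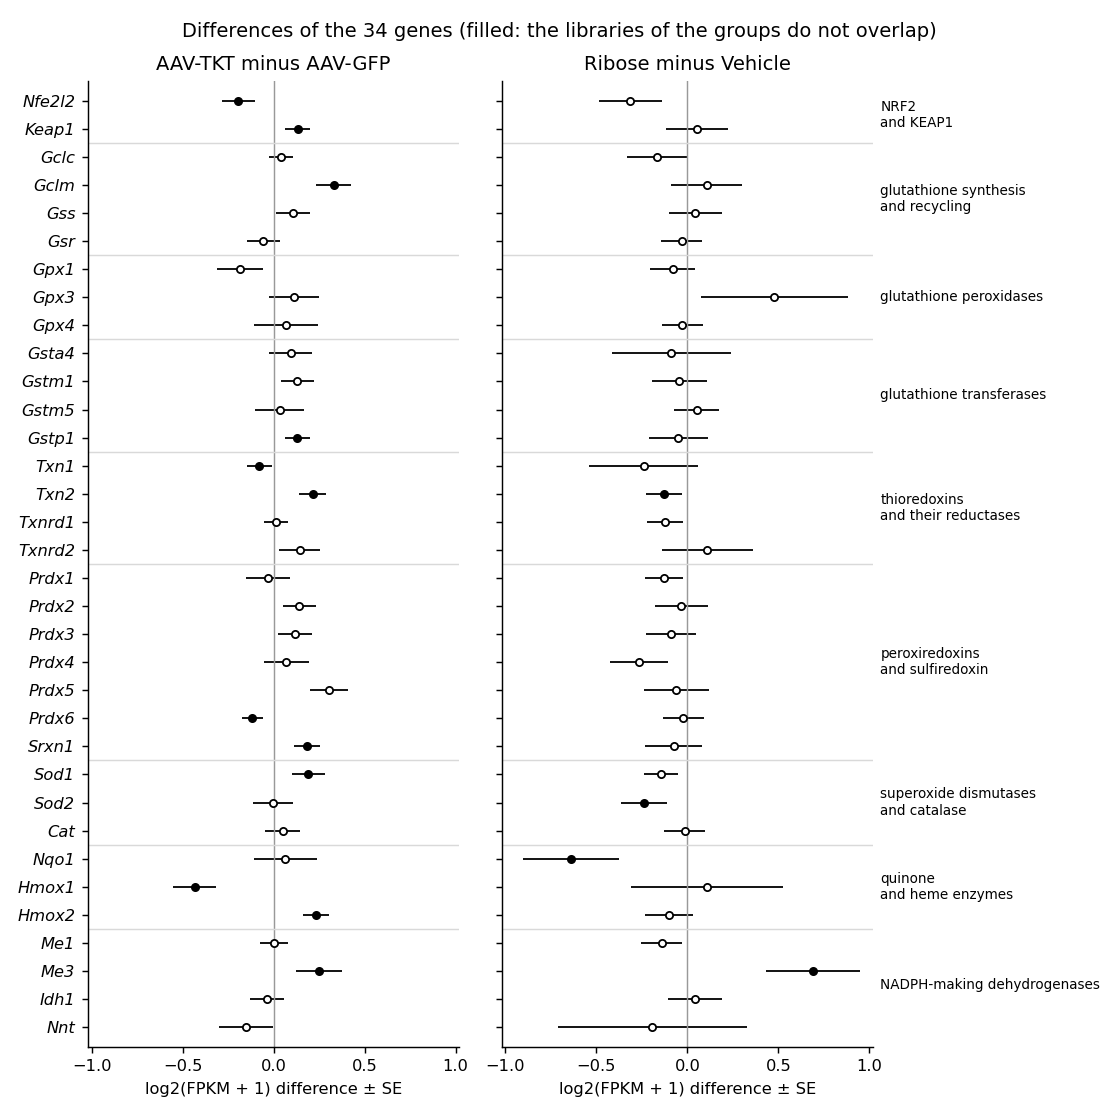
Log2(FPKM + 1) differences with their standard errors for the 34 genes, grouped by role from top to bottom, for AAV-TKT minus AAV-GFP (left) and Ribose minus Vehicle (right), 3 libraries per group. Filled points are genes whose groups do not overlap: 12 on the left and 4 on the right, and the error bars of most genes are wider on the right.

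The 2 regulators went opposite ways in the AAV experiment. Nfe2l2, which encodes NRF2, had 13.4, 15.9 and 16.0 FPKM in AAV-TKT libraries, against 16.6, 18.4 and 17.0 FPKM in AAV-GFP libraries. Keap1, which encodes the adaptor that targets NRF2 for degradation, had 23.3, 21.4 and 21.8 FPKM in AAV-TKT libraries, against 21.1, 19.2 and 20.0 FPKM in AAV-GFP libraries. Neither pair of groups overlapped, although the nearest libraries lay 0.690 FPKM apart for Nfe2l2 and 0.277 FPKM apart for Keap1. The differences were -0.19 ± 0.09 for Nfe2l2 and 0.13 ± 0.07 for Keap1 (SE, adjusted p = 0.488 and 0.520, limma). They were -0.12 for Nfe2l2 without AAV-TKT replicate 1 or with library weights, and 0.08 for Keap1 with equal totals. The ratio of Keap1 to Nfe2l2 was 1.35 to 1.74 in AAV-TKT and 1.05 to 1.27 in AAV-GFP libraries. Keap1 shares 510 bases of its exons with an antisense gene, Gm16754, and whether counting used strand is not given in the sources used here.

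Among the genes of glutathione synthesis and recycling, Gclm stood apart. Gclm, on chromosome 3, had 144, 130 and 129 FPKM in AAV-TKT libraries, against 119, 105.2 and 95.5 FPKM in AAV-GFP libraries. The AAV-TKT libraries all exceeded the AAV-GFP ones, by 9.51 FPKM at the closest. The difference was 25.7% of the AAV-GFP mean, or 0.33 ± 0.10 (SE, adjusted p = 0.378), and it stayed between 0.23 and 0.41 under every setting tried. The catalytic subunit Gclc was at 17.2 ± 0.8 FPKM in AAV-TKT and 16.7 ± 0.4 FPKM in AAV-GFP libraries (SD, n = 3 each). Glutathione synthetase, Gss, was at 9.36 ± 0.27 FPKM in AAV-TKT and 8.65 ± 0.96 FPKM in AAV-GFP libraries. Glutathione reductase, Gsr, which spends NADPH to restore glutathione, was at 34.9 ± 3.5 FPKM in AAV-TKT and 36.3 ± 2.5 FPKM in AAV-GFP libraries. The groups of these 3 genes overlapped.

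The glutathione peroxidases did not separate the groups. The selenoenzyme Gpx1 was at 61.4 ± 8.5 FPKM in AAV-TKT and 69.9 ± 8.2 FPKM in AAV-GFP libraries (SD, n = 3 each). The secreted Gpx3 was at 22.4 ± 3.8 FPKM in AAV-TKT and 20.5 ± 2.3 FPKM in AAV-GFP libraries. Gpx4, which protects membranes from lipid peroxides and blocks ferroptosis, was the most variable of the 3, with 115, 179 and 163 FPKM in AAV-TKT libraries, against 168, 129 and 134 FPKM in AAV-GFP libraries. The Gpx4 groups overlapped over most of their range, and 55.2% of its 31-base words occur in the transcript Gpx4-ps2, which was listed at 0.918 to 2.63 FPKM in these libraries. All 4 glutathione transferases had positive differences as deposited, but 3 of 4 did with equal totals or quantile normalization. Of these Gstp1 alone separated the groups, with 124, 124 and 118 FPKM in AAV-TKT libraries, against 116, 114 and 104.1 FPKM in AAV-GFP libraries. Gstp1 differed by 0.13 ± 0.07 (SE, adjusted p = 0.520), which was 0.08 without AAV-GFP replicate 3 and 0.07 with quantile normalization, and 57.8% of its words are shared with Gstp2, which is not in the AAV table. Gstm1, Gstm5 and Gsta4 differed by 0.13, 0.03 and 0.09 on the log2 scale, with overlapping groups.

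The cytosolic and the mitochondrial thioredoxin differed in sign. Txn1, the cytosolic protein, had 320, 320 and 326 FPKM in AAV-TKT libraries, against 346, 344 and 329 FPKM in AAV-GFP libraries. Txn2, the mitochondrial protein, had 42.1, 45.1 and 39.6 FPKM in AAV-TKT libraries, against 38.0, 34.7 and 35.9 FPKM in AAV-GFP libraries. Both genes separated the groups, Txn1 by 2.95 FPKM at its closest libraries and with a difference of -0.08 ± 0.07, Txn2 with a difference of 0.22 ± 0.07 (SE, adjusted p = 0.672 and 0.412). The difference was -0.16 for Txn1 with quantile normalization and 0.14 for Txn2 with library weights. The ratio of Txn1 to Txn2 was 7.09 to 8.23 in AAV-TKT libraries and 9.12 to 9.92 in AAV-GFP libraries. The NADPH-dependent reductases that recharge them overlapped between groups. Cytosolic Txnrd1 averaged 54.4 ± 2.5 FPKM in AAV-TKT and 53.9 ± 1.5 FPKM in AAV-GFP libraries, and mitochondrial Txnrd2 averaged 7.76 ± 0.88 FPKM in AAV-TKT and 6.94 ± 0.83 FPKM in AAV-GFP libraries (SD, n = 3 each).

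Among the peroxiredoxins and sulfiredoxin, 5 of 7 differences were positive, as deposited and under each of the 3 scalings tried. Sulfiredoxin, Srxn1, repairs peroxiredoxins that have been overoxidized. It had 130, 142 and 136 FPKM in AAV-TKT libraries, against 127, 115 and 117 FPKM in AAV-GFP libraries. These groups did not overlap, with a difference of 0.18 ± 0.07 (SE, adjusted p = 0.448). Prdx5, a peroxiredoxin of mitochondria, peroxisomes and cytosol, had the second largest positive difference of the 34 genes and is named here after its values were seen. It had 138, 128 and 112 FPKM in AAV-TKT libraries, against 114, 95.1 and 96.4 FPKM in AAV-GFP libraries, and AAV-TKT replicate 3 fell below AAV-GFP replicate 1. Its difference was 0.31 ± 0.10 (SE, adjusted p = 0.412), or 0.14 with library weights. Its exons overlap those of Trmt112 on the other strand by 409 bases, and Trmt112 was at 15.1 to 18.1 FPKM in AAV-TKT and 16.0 to 17.3 FPKM in AAV-GFP libraries. Prdx6, which also reduces phospholipid peroxides, had 44.2, 44.4 and 44.2 FPKM in AAV-TKT libraries, against 48.5, 47.1 and 48.9 FPKM in AAV-GFP libraries. These groups were narrow and apart, with a difference of -0.12 ± 0.06 (SE, adjusted p = 0.501). Prdx1, Prdx2, Prdx3 and Prdx4 differed by -0.03, 0.14, 0.12 and 0.07, with overlapping groups. The abundant Prdx2 had 169, 189 and 180 FPKM in AAV-TKT libraries, against 181, 151 and 157 FPKM in AAV-GFP libraries.

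Sod1 had 413, 469 and 411 FPKM in AAV-TKT libraries, against 388, 395 and 349 FPKM in AAV-GFP libraries. The groups did not overlap, and the difference was 0.19 ± 0.09 (SE, adjusted p = 0.496), or 14.2% of the AAV-GFP mean. An unlisted processed pseudogene, Gm8566, shares 34.9% of the words of Sod1. The mitochondrial manganese enzyme Sod2 averaged 65.7 ± 8.9 FPKM in AAV-TKT and 65.5 ± 4.7 FPKM in AAV-GFP libraries, and catalase, Cat, 54.7 ± 4.9 FPKM in AAV-TKT and 52.8 ± 5.0 FPKM in AAV-GFP libraries (SD, n = 3 each). Both overlapped between groups.

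The lowest log2 difference of the 34 genes was that of Hmox1, the stress-induced heme oxygenase, on chromosome 8. Hmox1 had 9.56, 9.00 and 11.1 FPKM in AAV-TKT libraries, against 12.3, 16.0 and 12.9 FPKM in AAV-GFP libraries. No AAV-TKT library reached the lowest AAV-GFP library. The mean was 28.0% lower in AAV-TKT, a difference of -0.43 ± 0.12 (SE, adjusted p = 0.378), between -0.51 and -0.28 under every setting tried. Hmox1 is known to be strongly expressed in macrophages that clear heme. The macrophage and red cell markers had lower summed levels in every AAV-TKT library than in any AAV-GFP library, as given above. Of 8 listed macrophage markers 6 lay lower without overlap, against 7.2% of all genes. For example, Lyz2 was at 7.77 to 10.5 FPKM in AAV-TKT and 23.7 to 34.9 FPKM in AAV-GFP libraries. Fcer1g, Cd14, Ptprc and C1qc, all among the 6, averaged under 1 FPKM in AAV-TKT and were listed only through their AAV-GFP level. The count of lower markers is shaped by that cut. None of the listed macrophage markers was at 0 in all libraries, and their part in the Hmox1 result was not tested. Hmox2, the constitutive enzyme of the brain and other tissues, had 64.2, 66.5 and 58.6 FPKM in AAV-TKT libraries, against 55.0, 54.3 and 51.3 FPKM in AAV-GFP libraries. It lay higher in all AAV-TKT libraries, by 0.23 ± 0.07 (SE, adjusted p = 0.385). The ratio of Hmox2 to Hmox1 was 5.28 to 7.38 in AAV-TKT libraries and 3.39 to 4.47 in AAV-GFP libraries. The exons of Hmox2 overlap those of Cdip1 on the other strand over 892 bases, 40.2% of their length, and Cdip1 itself was at 36.3 to 42.0 FPKM in AAV-TKT and 35.9 to 39.5 FPKM in AAV-GFP libraries. The quinone reductase Nqo1, a classical NRF2 target, averaged 5.02 ± 1.37 FPKM in AAV-TKT and 4.66 ± 0.42 FPKM in AAV-GFP libraries (SD, n = 3 each), with overlapping groups.

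**Figure D2:**
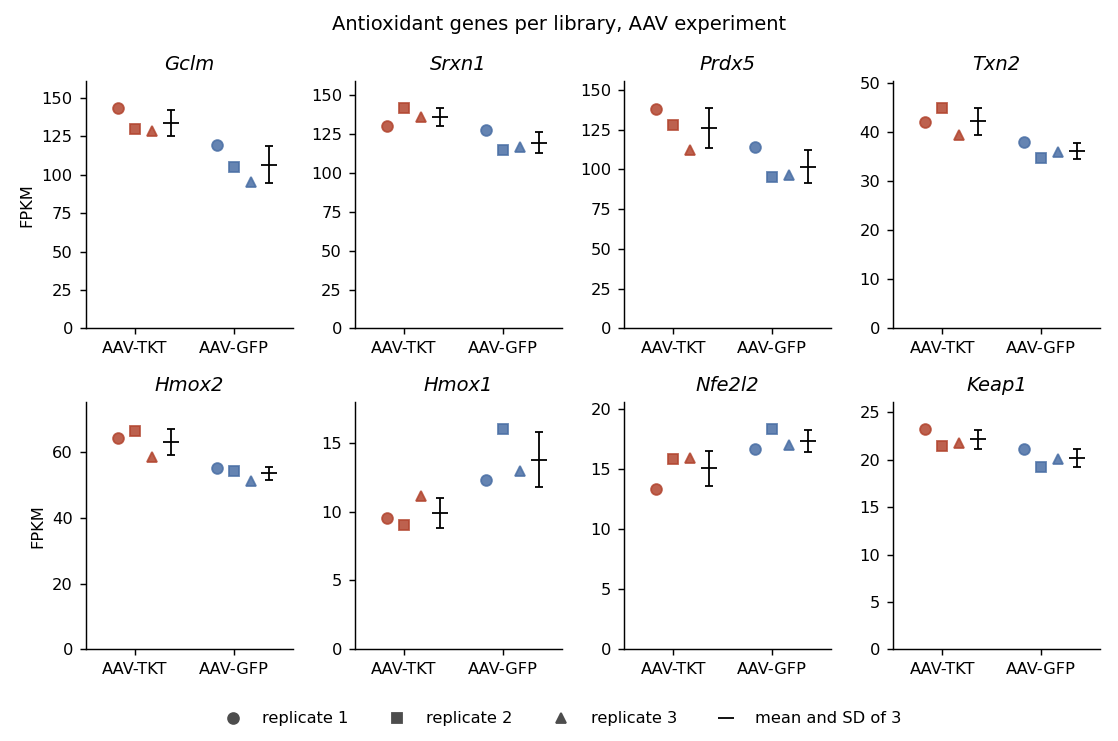
FPKM per library (points, a symbol for each replicate number) with mean and SD of 3 libraries for 8 genes, AAV-TKT left of AAV-GFP in each panel; each vertical axis starts at 0. Gclm, Srxn1, Txn2, Hmox2 and Keap1 lie higher in every AAV-TKT library, Hmox1 and Nfe2l2 lower, and the Prdx5 groups overlap.

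Of the enzymes that make NADPH outside the pentose phosphate pathway, cytosolic malic enzyme Me1 was at 47.8 ± 4.2 FPKM in AAV-TKT and 47.6 ± 0.2 FPKM in AAV-GFP libraries (SD, n = 3 each). Cytosolic isocitrate dehydrogenase Idh1 was at 70.1 ± 4.6 FPKM in AAV-TKT and 72.1 ± 7.5 FPKM in AAV-GFP libraries, and both genes overlapped between groups. The mitochondrial malic enzyme Me3 had 5.01, 3.77 and 3.57 FPKM in AAV-TKT libraries, against 3.42, 3.10 and 3.33 FPKM in AAV-GFP libraries. Its groups did not overlap, with a difference of 0.25 ± 0.13 (SE, adjusted p = 0.514), which was 0.13 without AAV-TKT replicate 1, the library with the highest value. The mitochondrial transhydrogenase Nnt averaged 2.34 ± 0.14 FPKM in AAV-TKT and 2.75 ± 0.64 FPKM in AAV-GFP libraries, with overlapping groups. The C57BL/6J strain, used in every group, is known to carry a deletion within Nnt that removes the functional protein.

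Further genes of the same chemistry were read from lists of other members of these pathways. Beside their counts, of all genes 11.3% lay higher and 7.2% lower without overlap, and 6.23% were higher and 4.36% lower at an unadjusted p under 0.05. Among 15 other genes listed with the NADPH sources, 0 passed in limma, 1 had an unadjusted p under 0.05, and 3 lay higher and 1 lower without overlap in AAV-TKT libraries. The 1 gene was Me2, a mitochondrial malic enzyme that works mainly with NAD and is thus no direct source of NADPH. Me2 was at 25.1 ± 1.3 FPKM in AAV-TKT and 21.9 ± 1.0 FPKM in AAV-GFP libraries, and glutamate dehydrogenase Glud1 at 151.7 ± 3.4 FPKM in AAV-TKT and 136.1 ± 7.6 FPKM in AAV-GFP libraries. The oxidative pentose phosphate dehydrogenases that make NADPH overlapped between groups, G6pdx at 23.0 ± 2.6 FPKM in AAV-TKT and 23.3 ± 1.3 FPKM in AAV-GFP libraries and Pgd at 29.8 ± 1.9 FPKM in AAV-TKT and 27.9 ± 1.1 FPKM in AAV-GFP libraries (SD, n = 3 each). Of 17 listed genes of glutathione handling, 0 passed and 3 lay higher without overlap, each at an unadjusted p under 0.05. They were Ggct, which breaks down gamma-glutamyl peptides, at 5.11 ± 0.38 FPKM in AAV-TKT and 3.37 ± 1.05 FPKM in AAV-GFP libraries, then Ggt7 and the mitochondrial glutathione carrier Slc25a39, the last at 49.7 ± 1.1 FPKM in AAV-TKT and 44.4 ± 2.3 FPKM in AAV-GFP libraries. Among 20 thioredoxin-fold and repair enzymes 0 passed, 3 lay higher and 2 lower without overlap, and 2 in each direction had an unadjusted p under 0.05. The thioredoxin inhibitor Txnip had 4.39, 3.80 and 4.98 FPKM in AAV-TKT libraries, against 6.51, 6.83 and 6.38 FPKM in AAV-GFP libraries, a difference of -0.50 ± 0.10 (SE, adjusted p = 0.333). Txndc5 lay higher, at 30.7 ± 0.4 FPKM in AAV-TKT and 26.7 ± 0.3 FPKM in AAV-GFP libraries (SD). The selenium carrier Selenop lay lower, at 30.5 ± 6.1 FPKM in AAV-TKT and 41.2 ± 2.5 FPKM in AAV-GFP libraries.

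The superoxide-producing NADPH oxidase was a group of low and lower values. Of 8 listed genes of superoxide enzymes and the oxidase 0 passed and 1 had a positive difference. In AAV-TKT, 3 lay lower without overlap and at an unadjusted p under 0.05. Every gene listed in the AAV experiment averaged at least 1 FPKM over its libraries. These 3 were under 1 FPKM in AAV-TKT and so were listed only through their AAV-GFP level. Genes this low in both groups are absent, and the count of lower genes is shaped by that cut. The catalytic subunit Cybb was at 0.868 ± 0.136 FPKM in AAV-TKT and 2.51 ± 0.73 FPKM in AAV-GFP libraries, the regulatory GTPase Rac2 at 0.308 ± 0.024 FPKM in AAV-TKT and 1.94 ± 1.03 FPKM in AAV-GFP libraries, and the organizer Ncf1 at 0.918 ± 0.095 FPKM in AAV-TKT and 2.15 ± 0.79 FPKM in AAV-GFP libraries (SD, n = 3 each). These are genes of phagocytes, and the neutrophil and macrophage markers given above had lower summed levels in the same libraries; their part in the result was not tested. Of 9 listed NRF2 partners 0 passed, 1 had an unadjusted p under 0.05, and the small MAF protein Mafk lay lower without overlap, at 3.35 ± 0.57 FPKM in AAV-TKT and 4.65 ± 0.57 FPKM in AAV-GFP libraries. Of 18 listed further NRF2 targets and iron or heme genes, the only one that passed was Tkt, which the virus itself carried. No other gene of that list passed, and the lowest adjusted p among them was 0.402, for Akr7a5 (limma). The aldehyde reductase Akr7a5 lay higher without overlap, at 13.8 ± 0.6 FPKM in AAV-TKT and 11.4 ± 0.9 FPKM in AAV-GFP libraries, as did the aldehyde oxidase Aox1, at 20.0 ± 1.4 FPKM in AAV-TKT and 17.2 ± 0.9 FPKM in AAV-GFP libraries. Of 12 listed further glutathione transferases 0 passed, 0 had an unadjusted p under 0.05, and in each the groups overlapped.

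The second comparison asked what ribose treatment did to the same genes. Before its results, the replicate 2 libraries of both groups were the highest or the lowest of their group in several of the 34 genes. Txn1 had 327, 440 and 256 FPKM in Ribose libraries, against 351, 601 and 288 FPKM in Vehicle libraries, and replicate 2 was the highest of each group. Hmox1 had 14.6, 21.2 and 12.7 FPKM in Ribose libraries, against 11.9, 29.5 and 8.59 FPKM in Vehicle libraries. Gpx3 had 28.9, 39.3 and 24.6 FPKM in Ribose libraries, against 16.9, 42.9 and 13.5 FPKM in Vehicle libraries. Replicate 2 was the highest in both groups for 7 genes, Txn1, Hmox1, Gpx3, Hmox2, Idh1, Gclc and Gstp1, and the lowest in both for 6, Prdx5, Prdx4, Me3, Srxn1, Gpx4 and Nnt. This was 38.2% of the 34 genes, against 40.5% of all genes fitted, so it was not particular to these genes. For replicate 3 the count was 7 highest and 5 lowest, 35.3% against 28.5% of all. For replicate 1 the share was 11.8% against 19.8%. In the AAV experiment the same count for replicate 2 was 12 highest and 3 lowest in both groups, 44.1% of the 34 genes against 32.1% of all. Across all genes fitted, the deviations of the replicate 2 libraries from their group means correlated at 0.36, against 0.04 for replicate 1 and 0.16 for replicate 3 (Pearson, a description over genes). Nothing in the labels says what these libraries share. In the ribose experiment replicate 2 had the lowest summed large-diameter neuron markers of each group, at 559 FPKM in Ribose and 414 FPKM in Vehicle. Satellite glia markers were lowest there too, at 781 and 1199 FPKM. Not every list did so: neutrophil markers were lowest in Ribose replicate 2, at 13.7 FPKM, and highest in Vehicle replicate 2, at 170 FPKM. The part of these markers in the pattern was not tested.

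**Figure D3:**
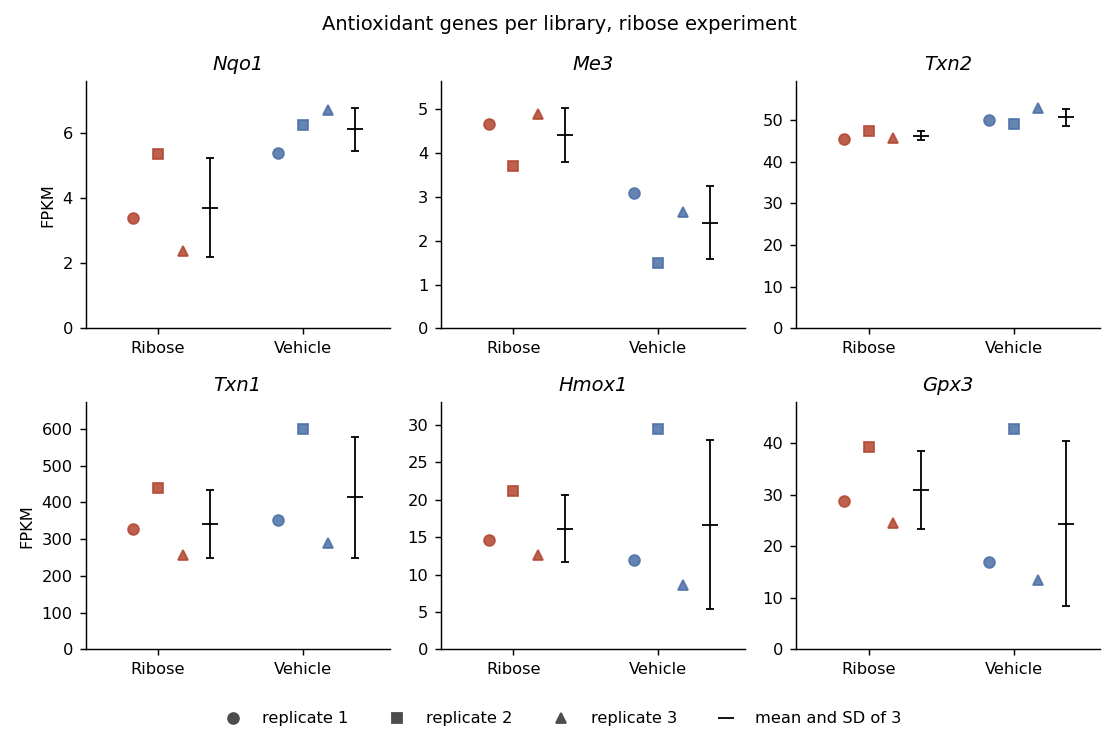
FPKM per library (points, a symbol for each replicate number) with mean and SD of 3 libraries for 6 genes of the ribose experiment, Ribose left of Vehicle; each vertical axis starts at 0. Txn1, Hmox1 and Gpx3 are highest in replicate 2 of both groups, while Nqo1 and Txn2 lie lower and Me3 higher in every Ribose library.

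None of the 34 genes passed between Ribose and Vehicle, at a background of 0.00724% of all genes, and every adjusted p was 0.9998 in limma. In 1 gene, Me3, all Ribose libraries lay above all Vehicle libraries (2.94% of the 34, against 4.28% of all genes). In 3 genes, Nqo1, Txn2 and Sod2, all lay below (8.82%, against 5.35%). At an unadjusted p under 0.05 there was 1 higher, Me3 (2.94%, against 2.80%), and 1 lower, Nqo1 (2.94%, against 1.99%). Both counts were 0 without Vehicle replicate 3, without Ribose replicate 1 and without Ribose replicate 3, and the lower one was 0 without Vehicle replicate 2 or with quantile normalization. The difference was positive in 9 of the 34 genes as deposited, in 14 with equal totals and in 17 with quantile normalization, and its median was -0.07 as deposited and 0.00 with quantile normalization, against -0.02 and -0.02 over all genes. With both replicate 2 libraries left out, 12 were positive and the median was -0.07. The median of the 34 genes per library varied within groups by an SD of 0.065 here too.

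Nqo1 had 3.39, 5.37 and 2.39 FPKM in Ribose libraries, against 5.40, 6.26 and 6.71 FPKM in Vehicle libraries. The groups were separated by 0.0275 FPKM, between Ribose replicate 2 and Vehicle replicate 1. The Ribose mean was 39.3% lower, a difference of -0.64 ± 0.26 (SE), which was -0.86 without both replicate 2 libraries and ranged from -0.88 to -0.43 over the settings tried. It was -0.43 without Ribose replicate 3, the lowest library. Me3 had 4.65, 3.71 and 4.88 FPKM in Ribose libraries, against 3.09, 1.49 and 2.65 FPKM in Vehicle libraries. Every Ribose library lay above every Vehicle library, with a difference of 0.69 ± 0.26 (SE), which was 0.58 without both replicate 2 libraries and 0.48 without Vehicle replicate 2. The ratio of Me1 to Me3 was 9.56 to 12.1 in Ribose and 15.3 to 33.6 in Vehicle libraries.

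Txn2 had 45.6, 47.5 and 45.7 FPKM in Ribose libraries, against 50.0, 49.1 and 53.0 FPKM in Vehicle libraries. The groups were tight and did not overlap, with a difference of -0.13 ± 0.10 (SE). Sod2 had 49.8, 60.5 and 65.0 FPKM in Ribose libraries, against 67.6, 73.1 and 66.0 FPKM in Vehicle libraries, and its difference was -0.24 ± 0.13 (SE), which was -0.13 without Ribose replicate 1. Both lay lower in each Ribose library, Sod2 by 1.01 FPKM at the closest. Sod1 had 345, 363 and 316 FPKM in Ribose libraries, against 382, 357 and 391 FPKM in Vehicle libraries, and Ribose replicate 2 exceeded Vehicle replicate 2. Its difference was -0.14 ± 0.09 (SE).

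The remaining roles overlapped between groups in the ribose experiment. Nfe2l2 averaged 14.6 ± 2.1 FPKM in Ribose and 18.5 ± 3.0 FPKM in Vehicle libraries, and Keap1 averaged 23.9 ± 4.4 FPKM in Ribose and 22.9 ± 3.1 FPKM in Vehicle libraries (SD, n = 3 each). Gclm averaged 144 ± 34 FPKM in Ribose and 134 ± 25 FPKM in Vehicle libraries, with larger SDs than in the AAV experiment. Gclc, Gss and Gsr differed by -0.17, 0.04 and -0.03. The peroxiredoxins and sulfiredoxin were all negative as deposited, 7 of 7, from -0.27 for Prdx4 to -0.02 for Prdx6, but 2 of 7 were positive with equal totals and 4 of 7 with quantile normalization. Prdx2 had 177, 258 and 213 FPKM in Ribose libraries, against 206, 216 and 235 FPKM in Vehicle libraries, and Gpx4 had 218, 210 and 221.5 FPKM in Ribose libraries, against 233, 190 and 242 FPKM in Vehicle libraries. Both genes overlapped. Hmox2 averaged 53.6 ± 5.1 FPKM in Ribose and 57.9 ± 7.6 FPKM in Vehicle libraries. For Hmox1 the means, 16.1 ± 4.4 FPKM in Ribose and 16.7 ± 11.2 FPKM in Vehicle libraries, and the log2 difference of 0.11 ± 0.42 (SE) differed in sign. Gpx1, Gpx3, the 4 transferases, Txn1, Txnrd1, Txnrd2, Cat, Me1 and Idh1 ranged from -0.24 for Txn1 to 0.48 for Gpx3.

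Nnt was listed under 2 overlapping gene models on chromosome 13 in the ribose table, and the AAV table held the shorter of them alone. All exon bases of the shorter model lie inside the longer one on the same strand, 3339 bases in all, so a read there could be assigned to either. The shorter model took 80.6%, 19.9% and 75.0% of the summed FPKM in Ribose libraries, against 100%, 28.8% and 100% in Vehicle libraries. Replicate 2 was the low library of both groups in this share. The sum of both models was 3.71, 2.72 and 4.51 FPKM in Ribose libraries, against 3.35, 3.17 and 3.84 FPKM in Vehicle libraries, and these overlapped. The separate models differed by -0.19 ± 0.52 for the shorter and 0.61 ± 0.53 for the longer (SE).

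**Figure D4:**
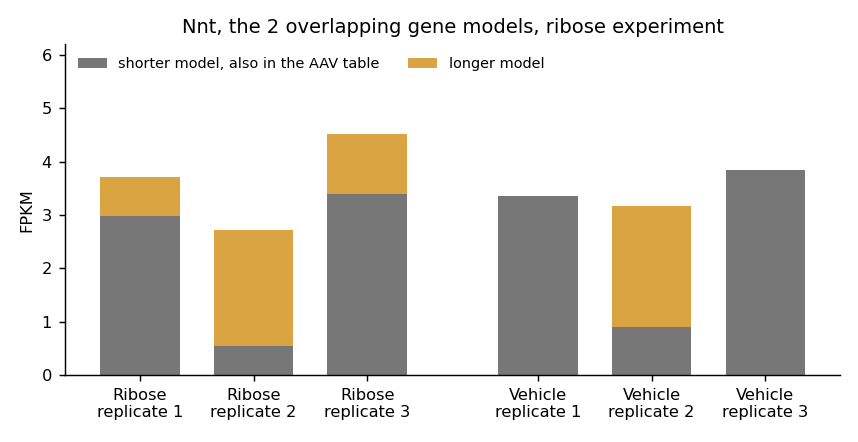
FPKM of the 2 overlapping Nnt gene models, stacked, in the 3 Ribose and 3 Vehicle libraries. The shorter model makes up most of each bar except in replicate 2 of both groups, while the summed heights, 2.72 to 4.51 FPKM in Ribose and 3.17 to 3.84 FPKM in Vehicle libraries, overlap.

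Of the further lists, 0 genes passed between Ribose and Vehicle in limma. At an unadjusted p under 0.05 there was 1 higher among 15 genes listed with the NADPH sources, 2 lower in glutathione handling and 1 lower among the further NRF2 targets, and 0 in the other lists, at a background of 2.80% higher and 1.99% lower. Without overlap, 4.28% of all genes lay higher and 5.35% lower. The counts were 1 higher and 1 lower of the 15, and 1 higher and 2 lower of 17 fitted in glutathione handling. They were 0 higher and 3 lower of 20 thioredoxin-fold and repair enzymes, 0 higher and 2 lower of 19 further NRF2 targets, and 0 in the other lists. Mthfd1, which carries out steps of cytosolic folate metabolism including an NADPH-making one, was at 12.0 ± 2.3 FPKM in Ribose and 8.40 ± 0.94 FPKM in Vehicle libraries without overlap, and mitochondrial Aldh1l2, another folate enzyme, at 1.21 ± 0.34 FPKM in Ribose and 1.85 ± 0.17 FPKM in Vehicle libraries (SD, n = 3 each). In glutathione handling, Slc25a39 had 45.6, 53.8 and 45.9 FPKM in Ribose libraries, against 62.4, 58.3 and 66.1 FPKM in Vehicle libraries, a difference of -0.36 ± 0.11 (SE, adjusted p = 0.957). Slc3a2, a subunit of the cystine importer, also lay lower, at 44.3 ± 3.7 FPKM in Ribose and 54.0 ± 3.6 FPKM in Vehicle libraries. Slc7a11 of the same list was too low to be fitted, at 0.545 ± 0.264 FPKM in Ribose and 0.594 ± 0.213 FPKM in Vehicle libraries. The glutathione-degrading Chac1 lay higher, at 6.24 ± 1.48 FPKM in Ribose and 4.15 ± 0.57 FPKM in Vehicle libraries. The redox-sensitive chaperone Park7, the sestrin Sesn3 and the disulfide isomerase Txndc5 lay lower without overlap, none at an unadjusted p under 0.05. Park7 was at 83.0 ± 2.9 FPKM in Ribose and 95.8 ± 4.9 FPKM in Vehicle libraries. The ferritin heavy chain Fth1 had 424, 432 and 418 FPKM in Ribose libraries, against 478, 496 and 593 FPKM in Vehicle libraries, a difference of -0.29 ± 0.11 (SE). Tkt itself also lay lower without overlap. It had 106.23, 112.01 and 105.02 FPKM in Ribose libraries, against 112.45, 126.35 and 116.25 FPKM in Vehicle libraries. Its difference was -0.13 ± 0.09 (SE, unadjusted p = 0.194 in limma). Of the 12 genes of superoxide enzymes and the oxidase, 4 were fitted and their groups overlapped: the oxidase genes Nox4 and Ncf1, the extracellular dismutase Sod3 and the copper chaperone Ccs. Of the 10 NRF2 partners 8 had negative differences and all overlapped.

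The third comparison asked whether transketolase and ribose acted on these genes to a different extent. The AAV-TKT effect minus the Ribose effect was tested over the 12853 genes fitted in both tables, and 0 of the 34 passed, at a background of 0.00778% of genes (lowest adjusted p = 0.669 in limma). At an unadjusted p under 0.05 there were 3 positive differences of effect (8.82% of the 34, against 4.22%) and 0 negative ones (against 2.62%). These were Txn2 at 0.34 ± 0.11, Sod1 at 0.34 ± 0.13 and Hmox2 at 0.33 ± 0.15 (SE), and Nqo1 followed at 0.70 ± 0.32. The 3 became 1 without AAV-GFP replicate 3, AAV-TKT replicate 2 or Ribose replicate 3, 2 with equal totals or quantile normalization, 5 without Ribose replicate 2, and 6 without both replicate 2 libraries of the ribose experiment. The 0 negative ones became 2 without Vehicle replicate 2 or both of those libraries. For Sod1 the difference of effect was 0.22 with quantile normalization. Txn2 was the gene among the 34 whose groups were separate in both experiments with opposite sign, higher in AAV-TKT than in AAV-GFP and lower in Ribose than in Vehicle, and Me3 the gene separate in both with the same sign. In all, 15 of the 34 genes had the same sign in both comparisons (44.1%, against 48.1% of all genes), 17 were positive in AAV-TKT and negative in Ribose, and 2 the other way round. The effects correlated weakly over the 34 genes, with a Pearson r of 0.23 and a Spearman rho of 0.27, given as a description. The median difference of effect was 0.14, against 0.05 over all genes, and it was 0.05 with libraries set to equal totals and 0.06 with quantile normalization.

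**Figure D5:**
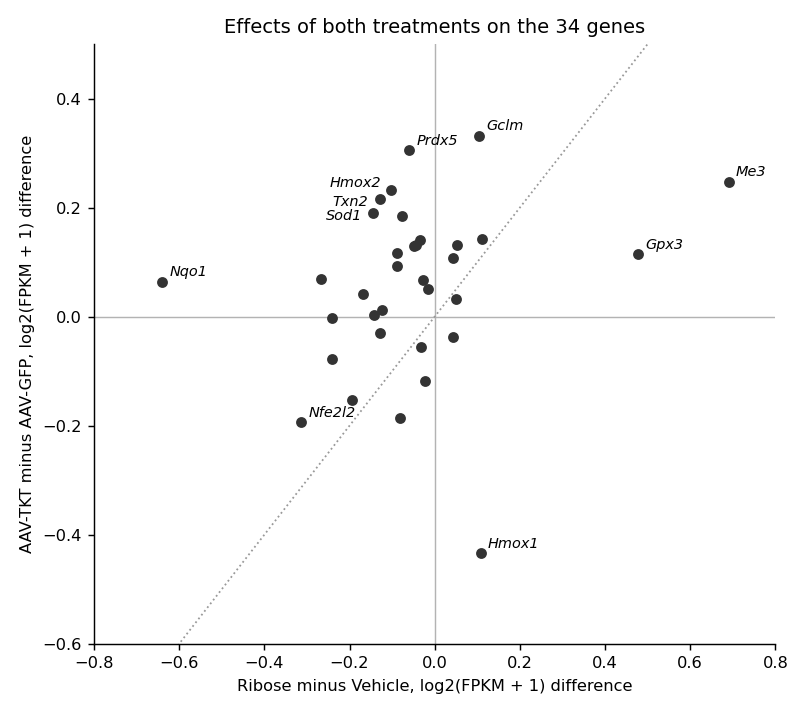
Log2(FPKM + 1) difference of AAV-TKT minus AAV-GFP (vertical) against Ribose minus Vehicle (horizontal) for the 34 genes; the dotted line marks equal effects. Of the 34 points 17 lie in the upper left, where AAV-TKT is positive and Ribose negative, among them Txn2, Sod1, Hmox2 and Nqo1, while Me3 lies to the right.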

How the data were processed

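Polyadenylated RNA of 12 libraries, 3 in each of 4 groups, was sequenced. Per the labels' protocols, RNA was taken with the RNeasy Micro kit and libraries with the NEBNext Ultra II Directional kit. Per the submitters' processing notes, reads were handled with bcl2fastq 2.20, FastQC and Trim Galore on GRCm38. No source used here states the aligner, counter, strand setting or FPKM scaling. The authors deposited FPKM in a separate table for each experiment, of 13178 genes for AAV and 21650 for ribose. Levels were therefore never compared across tables. Columns named Ctlr in the ribose table were taken as Vehicle, the sole other group of that experiment.

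Genes were matched to GENCODE M21 by identifier. Groups were compared with limma 3.58.1 in R 4.3.3 on log2(FPKM + 1), two-sided, with an intensity trend, over genes whose mean reached 1 FPKM, and p-values were adjusted by Benjamini-Hochberg over all genes fitted (threshold 0.05). Fold changes of low genes are understated on this scale. The difference of effects was a contrast over all 12 libraries, with 1 mean per group. The fits were tested on simulated data. Nnt was counted by the gene model that both tables list. Shared sequence was measured as the percentage of a gene's 31-base words found in another gene's transcripts.

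The 34 genes and the other lists were chosen with earlier results of these data known. Values per library are given for genes whose groups do not overlap at an unadjusted p under 0.05 and for the 4 most abundant of each table; of each other list, up to 3 genes without overlap are named by p. Gpx3, Hmox1 in the ribose experiment, Prdx5, Prdx6, Nfe2l2, Keap1, Gstp1, Me3 in the AAV experiment, Txn2 and Sod2 in the ribose experiment, G6pdx, Pgd, Lyz2 and the ratios between genes were added after their values were seen. Alternatives were smaller pseudocounts (0.1, 0.5), the low-value filter dropped or raised to 5 FPKM, 3 scalings, a replicate block, library weights, a robust prior, protein-coding genes alone and each library left out. The sum of both Nnt models was added after seeing the data.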

Additional observations from a re-analysis of the deposited data

Results flagged for a closer look

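Txn2, which encodes mitochondrial thioredoxin, drew attention because its groups were apart in both experiments, with differences of opposite sign, although it passed the threshold in neither. All 3 AAV-TKT libraries (39.6 to 45.1 FPKM) lay above the 3 AAV-GFP libraries (34.7 to 38.0 FPKM), while all 3 Ribose libraries (45.6 to 47.5 FPKM) lay below the 3 Vehicle libraries (49.1 to 53.0 FPKM). The AAV-TKT effect minus the Ribose effect was 0.34 ± 0.11 on the log2(FPKM + 1) scale (SE), with an adjusted p of 0.669 over all genes in limma, so this difference did not pass the threshold. It ranged from 0.25 to 0.39 over the settings tried, with adjusted p-values from 0.213 to 0.999.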

How the results depend on the processing

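None of the 34 genes passed the threshold in any comparison under any setting tried. The differences recomputed for 13 genes in the AAV experiment and 4 in the ribose experiment, and 4 differences of effect, kept their sign in every setting. The genes were picked on these same values, for groups that do not overlap or an unadjusted p under 0.05. The differences of effect were picked for the smallest p. Where groups do not overlap, leaving out a library or changing the pseudocount cannot reverse the sign, so those settings could not have shown a reversal. The count of all genes past the threshold in the AAV experiment was 2, and became 5 with a pseudocount of 0.1, 4 with a mean of at least 5 FPKM, 23 with library weights, 8 with protein-coding genes alone, and 3 to 41 with 1 library left out, the 41 without AAV-GFP replicate 2. In the ribose experiment it was 1, and became 2 with a pseudocount of 0.5, 0 with protein-coding genes alone, 6 without both replicate 2 libraries, and 1 to 4 with 1 library left out, the 4 without Ribose replicate 2. For the difference of effects it was 1, and became 2 with a pseudocount of 0.1, 12 without both replicate 2 libraries of the ribose experiment, and 1 to 3 with 1 library left out. The median difference of the 34 genes in the ribose experiment, -0.07, was 0.0041 with quantile normalization, and the median difference of effects, 0.14, was 0.045 with equal totals. In the AAV experiment the median, 0.07, was 0.02 with equal totals and 0.03 to 0.10 with 1 library left out. The cause of these shifts was not tested.

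With the replicate number as a block, the counts of all genes past the threshold were 0 in the AAV experiment, 1 in the ribose experiment and 1 for the difference of effects, and 0 of the 34 genes passed. Under that block 6 of the 34 differences of effect had an unadjusted p under 0.05, against 3 without it. Deviations of same-numbered libraries correlated at 0.03, 0.07 and -0.01 in the AAV experiment and at 0.04, 0.36 and 0.16 in the ribose experiment. Either replicate 2 library of the ribose experiment correlated at -0.26 to -0.11 with libraries of other numbers. Deviations from a group mean cancel out within the group, so a positive value such as 0.36 forces negative ones beside it. These negative values are therefore no separate evidence of pairing. Nothing in the labels says that the numbers pair libraries, so the main fits held no block. Read depth is unknown, so no interval for counting error can be given, and genes of a few FPKM, such as Nqo1, Me3 and Nnt, carry the least certain values.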
